A study of Homo sapiens with 12 samples.

Results

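Glycolysis, the use of pyruvate and the tricarboxylic acid (TCA) cycle were followed through 52 genes chosen by symbol, and all 52 are among the 12616 genes of the normalised table. They comprise 2 glucose transporters, 12 genes from hexokinase to triose phosphate isomerase with their PFKFB regulators, 7 genes from GAPDH to pyruvate kinase, 4 genes of lactate production and transport, 12 genes that carry or commit pyruvate to the mitochondrion, 13 genes of the TCA cycle and 2 transcriptional coactivators of oxidative metabolism. RNA came from MeWo and SkMel28, established human melanoma cell lines, each engineered to express a short hairpin RNA to MITF when doxycycline (Dox) is added. MITF is the transcription factor that specifies the melanocyte lineage. Each line was kept for 8 days with 0 µg/ml Dox (control) or 1 µg/ml Dox, with 3 libraries in each of the 4 groups. All 4 groups carry the hairpin, and none received Dox without it, so a change with Dox is that of the drug and the hairpin together. The labels put MeWo in EMEM and SkMel28 in RPMI, both with 10% serum, while the methods of the study give RPMI for its human lines apart from HBL. Taken by the labels, the lines cannot be told apart from their media. The labels do not say whether the libraries of a group came from separate cultures, so the p-values measure the spread between these libraries, which may be technical.

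Glycolysis splits glucose into pyruvate in the cytosol, with hexokinase, phosphofructokinase and pyruvate kinase at its committed steps. Lactate dehydrogenase turns pyruvate into lactate, which leaves through the monocarboxylate transporters, or else the MPC carrier brings pyruvate into the mitochondrion, where pyruvate dehydrogenase makes acetyl-CoA for the TCA cycle. The PDK kinases switch pyruvate dehydrogenase off and the PDP phosphatases switch it on again. In melanoma MITF is known to activate PPARGC1A, which encodes PGC1α, a coactivator that raises the expression of mitochondrial genes.

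Between 2568187 and 3714608 reads were counted per library, and values are in RPM, reads per 1000000 of a library size adjusted by TMM (trimmed mean of M-values) factors, so that 1 read is worth 0.278 to 0.389. MITF itself was 657, 663 and 708 RPM in the MeWo control libraries against 451, 354 and 371 with Dox, and 861, 739 and 792 in the SkMel28 controls against 575, 578 and 552 with Dox. The groups did not overlap in either line, and the log2 change was -0.79 ± 0.11 (SE) in MeWo and -0.49 ± 0.11 in SkMel28 (limma, adjusted p = 6.5e-05 and 0.0071). All 9 melanocyte lineage markers were listed, against 2 of 8 fibroblast, 1 of 6 keratinocyte and 1 of 6 immune markers. The summed melanocyte markers lay between 13102 and 13295 in the MeWo controls and 6756 and 8439.8 with Dox, and between 11599 and 12932 in the SkMel28 controls and 7722 and 8092 with Dox. In MeWo all 9 passed, 6 lower and 3 higher (S100A1, DCT and S100B), and in SkMel28 3 were lower and 1, S100B, higher. The summed fibroblast markers were between 41.5 and 47.8 in the MeWo controls and 9.85 and 19.2 with Dox, where LUM fell (-1.78 ± 0.23, adjusted p = 3.1e-05), and between 10.9 and 13.3 in the SkMel28 controls and 6.04 and 8.91 with Dox. The only immune marker listed, CD68, was between 57.5 and 147 in the MeWo Dox and 18.7 and 23.0 in the SkMel28 Dox libraries, against 132 to 151 and 78.2 to 101 in the controls, and was called lower in SkMel28 and not in MeWo. The part of these changes in the results below was not tested. Dox replicate 1 of MeWo stood apart from its group, with correlations across genes of 0.960 and 0.969 to the other two, which reached 0.976 with each other, so calls that change without it are given with and without it. Dox replicates 2 and 3 of MeWo also held more of the GC-rich transcripts. Their mean log2 deviation for transcripts over 60% GC was 0.320 and 0.171, against -0.0079 in replicate 1, and in the SkMel28 Dox libraries it was -0.142, -0.115 and -0.0041. In bulk RNA a change in the share of cells of some kind and a change within each cell cannot be told apart.

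Each change was tested with limma on log2(value + 1) over all 12616 genes, and a gene passed where the p adjusted over all of them was under 0.05. Fold changes of low genes are understated on this scale. In MeWo 18 of the 52 genes passed the test with Dox, 34.6% of them, where 16.7% of all genes tested passed. Of these 6 rose, against 8.58% of all genes, and 12 fell, against 8.12%. In SkMel28 8 genes passed, or 15.4%, where the background was 10.9%. There 1 rose, against 5.88% of all genes, and 7 fell, against 5.04%. These genes are measured at higher levels than most, with a median of 51.6 RPM against 18.1 for all genes. Among the 8073 genes averaging at least 10, 20.5% passed in MeWo and 13.3% in SkMel28, where 37.5% and 16.7% of the 48 members at that level did. The median log2 change of the 52 was -0.22 in MeWo and -0.18 in SkMel28, against 0 for all genes in both. Without MeWo Dox replicate 1, 27 passed in MeWo (8 higher and 19 lower) and 12 in SkMel28 (1 higher and 11 lower). The share of all genes that passed rose as well, to 31% in MeWo and 16.2% in SkMel28. Scaling to the spike-in RNAs moved the median of all genes by 0.22 in MeWo and -0.08 in SkMel28, and with it the split of called members became 7 higher and 2 lower in MeWo, and 0 higher and 5 lower in SkMel28. Over all genes that scaling brought the share of calls that were higher to 84.6% in MeWo, where it had been 51.4%, and to 42.5% in SkMel28, where it had been 53.8%. Under it 19.7% of all genes passed in MeWo and 7.35% in SkMel28. The 9 members called in MeWo were then a smaller share of the 52 than the share of all genes, and the 5 in SkMel28 a larger one. In MeWo the lower members left were MPC1 and PPARGC1A, and PFKP, for example, was at -0.44 in place of -0.71. The median log2 change of the 52 was then 0.04 in MeWo, of the opposite sign, and -0.28 in SkMel28, against 0.22 and -0.08 for all genes. Each change and its error are shown in the plot of changes by pathway step.

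**Figure D1:**
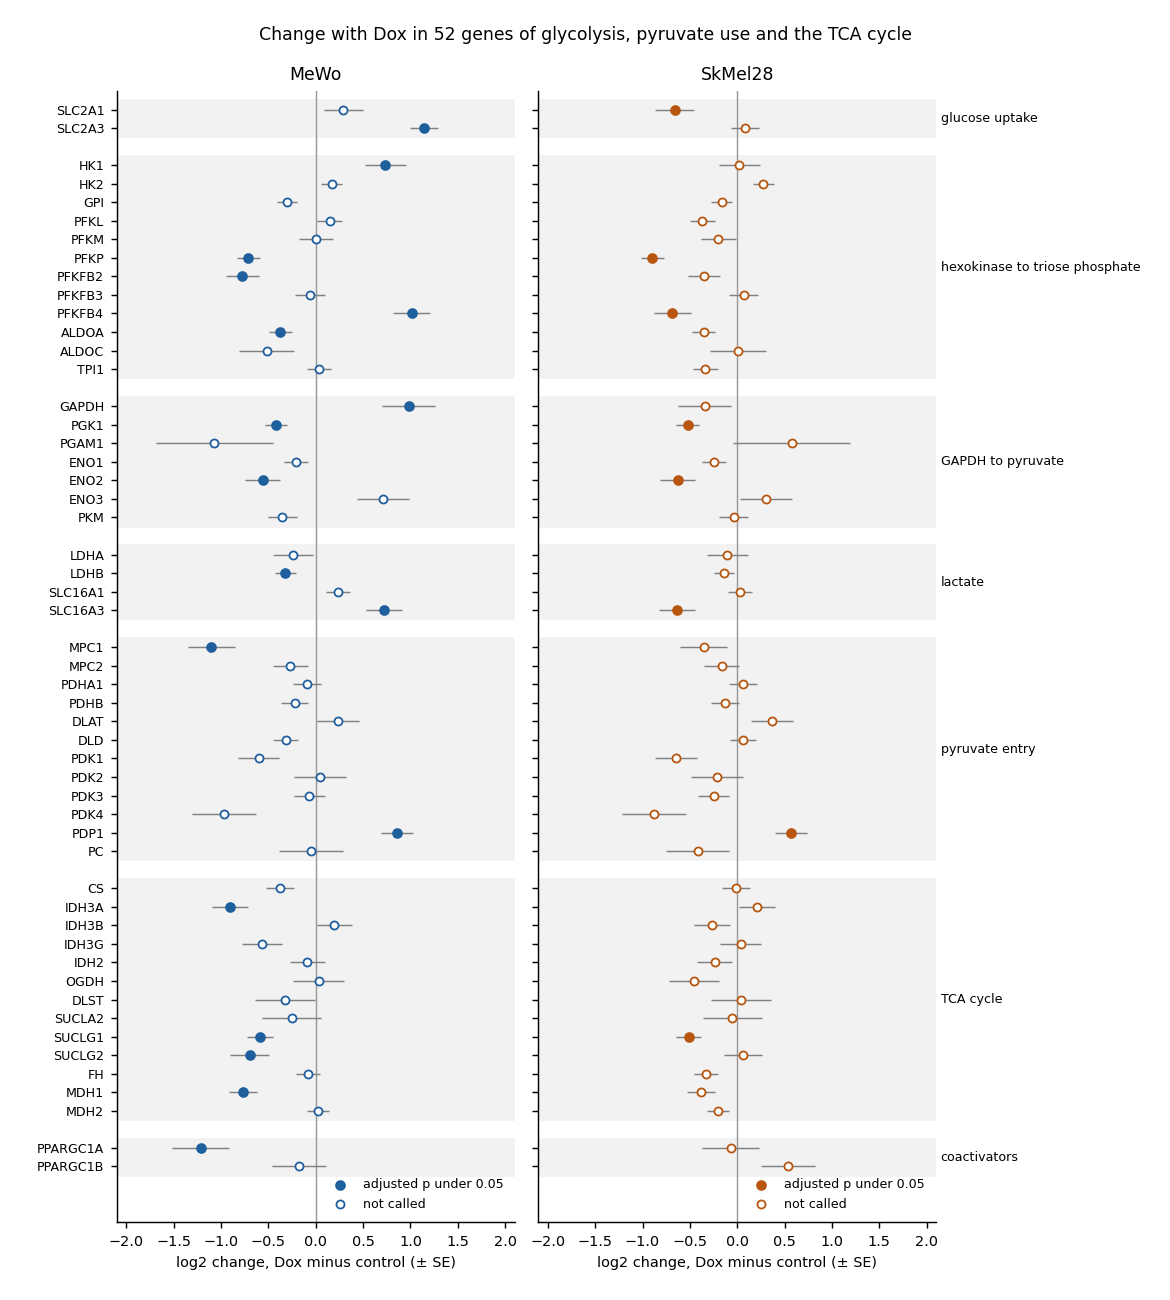
Log2 change with Dox (horizontal axis, Dox minus control, bars ± SE) of the 52 genes, ordered by pathway step from glucose uptake to the coactivators, in MeWo (left) and SkMel28 (right). Filled points passed the test (limma, adjusted p under 0.05), 18 in MeWo and 8 in SkMel28, and most of the filled points lie left of 0.

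Of the glucose transporter transcripts, SLC2A3 passed in MeWo and SLC2A1 in SkMel28. SLC2A3, which encodes the high-affinity glucose transporter GLUT3, was 16.4, 14.8 and 21.1 in the MeWo controls and 40.2, 37.5 and 40.3 with Dox. It rose 2.26-fold without any overlap (log2 change 1.15 ± 0.15, adjusted p = 3.2e-05). In SkMel28 it was 72.7, 86.0 and 89.7 in controls and 84.6, 88.9 and 88.8 with Dox, which overlap (log2 change 0.08 ± 0.15, adjusted p = 0.80). The MeWo change exceeded that of SkMel28 by 1.06 ± 0.21 on the log2 scale, a tested difference (adjusted p = 0.0054). SLC2A1, the ubiquitous transporter GLUT1, was 39.0, 40.9 and 36.4 in the SkMel28 controls and 22.3, 29.1 and 21.8 with Dox, a fall with no overlap (log2 change -0.66 ± 0.20, adjusted p = 0.0472). This call was lost when any single library other than MeWo Dox replicates 1 and 2 was left out, with log2 changes of -0.79 to -0.59 and adjusted p of 0.0518 to 0.16. In MeWo it was 15.8, 13.2 and 14.6 in controls and 13.4, 25.0 and 17.3 with Dox, overlapping (log2 change 0.29 ± 0.20, adjusted p = 0.36). For SLC2A1 the difference of the changes, 0.95 ± 0.29, missed the threshold (adjusted p = 0.0546) and passed without MeWo Dox replicate 1, at 1.15 (adjusted p = 0.0032).

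Of the 12 genes from hexokinase to triose phosphate isomerase, 2 rose and 3 fell in MeWo, or 41.7% called, against 16.7% of all genes. In SkMel28 2 fell, or 16.7%, against 5.04% of all genes. PFKP, the platelet-type phosphofructokinase, fell in both lines. It was 208, 208 and 205 in the MeWo controls against 129, 132 and 118 with Dox (log2 change -0.71 ± 0.12, adjusted p = 0.00040), and 80.2, 73.6 and 80.5 in the SkMel28 controls against 37.7, 40.1 and 47.1 with Dox (log2 change -0.90 ± 0.12, adjusted p = 6.6e-05). No library of a Dox group reached its control group in either line, and the replicates lay close together.

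PFKFB4, which encodes a bifunctional enzyme that makes and breaks down the sugar bisphosphate activating phosphofructokinase, moved in opposite directions. It was 47.8, 55.6 and 43.1 in the MeWo controls and 93.8, 105 and 99.2 with Dox, a 2.03-fold rise (log2 change 1.01 ± 0.20, adjusted p = 0.0016). In SkMel28 it fell from 30.1, 22.8 and 36.4 to 18.1, 23.4 and 13.3 (log2 change -0.69 ± 0.20, adjusted p = 0.032), although the highest Dox library lay above the lowest control. The call in SkMel28 was lost without SkMel28 control replicate 1 or 3 or Dox replicate 1 or 3 (log2 change -0.70 to -0.49, adjusted p = 0.085 to 0.17). The 2 changes differed by 1.70 ± 0.28 on the log2 scale (adjusted p = 0.0015), and this held in each alternative tried, with differences of 1.5 to 2.06. Its related enzyme PFKFB2 fell in MeWo from 53.3, 47.8 and 49.9 to 29.7, 28.0 and 29.1 (log2 change -0.78 ± 0.17, adjusted p = 0.0044). It was 33.7, 35.2 and 54.0 in the SkMel28 controls and 34.7, 28.4 and 30.5 with Dox, which overlap (log2 change -0.35 ± 0.17, adjusted p = 0.22). The PFKFB4 locus (chr3:48517684-48562015, minus strand, GRCh38) overlaps UCN2 on the same strand in the GENCODE annotation, so reads of the 2 genes could be split between them.

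HK1, the widely expressed hexokinase, was 116, 90.1 and 89.1 in the MeWo controls and 98.6, 225 and 196 with Dox. Dox replicate 1 sat among the controls while the other two were higher, so the groups overlapped, and the log2 change was 0.74 ± 0.22 (adjusted p = 0.030). Without Dox replicate 1 it was 1.10 (adjusted p = 6.8e-06, range over the alternatives 6.8e-06 to 0.22), whereas without control replicate 2 or 3 or Dox replicate 2 or 3 the call was lost, at 0.51 to 0.68 (adjusted p = 0.11 to 0.15). In SkMel28 HK1 was 90.5, 115 and 103 in controls and 102, 95.6 and 116 with Dox (log2 change 0.02 ± 0.22, adjusted p = 0.97). Between the lines the HK1 changes differed by 0.71 ± 0.31 (adjusted p = 0.16), and 1.07 without MeWo Dox replicate 1 (adjusted p = 0.00035). HK2, the hexokinase that many tumours induce, did not pass in either line. It was 55.6, 59.8 and 59.3 in the MeWo controls and 60.3, 70.9 and 65.7 with Dox (log2 change 0.17 ± 0.11, adjusted p = 0.34), and 307, 355 and 341 in the SkMel28 controls and 433, 408 and 373 with Dox (log2 change 0.27 ± 0.11, adjusted p = 0.14). Its Dox libraries all lay above the controls in both lines. ALDOA, the main aldolase, fell in MeWo from 712, 770.1 and 853 to 555, 649.6 and 594 (log2 change -0.38 ± 0.12, adjusted p = 0.040). Its call was lost without MeWo control replicate 2 or 3, MeWo Dox replicate 3, SkMel28 control replicate 1 or SkMel28 Dox replicate 2 (log2 change -0.38 to -0.31, adjusted p = 0.0504 to 0.17). In SkMel28 ALDOA was 1016, 981 and 857 in controls and 679, 697 and 865 with Dox (log2 change -0.35 ± 0.12, adjusted p = 0.071), and it passed there when MeWo Dox replicate 1 or SkMel28 Dox replicate 3 was left out, at -0.46 to -0.35 (adjusted p = 0.021 to 0.029). The 7 genes of this stretch that did not pass in MeWo, among them GPI, PFKL, PFKM, PFKFB3 and TPI1, had log2 changes of -0.52 to 0.17. The 10 in SkMel28 had changes of -0.37 to 0.27. GPI, which interconverts the hexose phosphates, passed in MeWo without Dox replicate 1 (log2 change -0.34, adjusted p = 0.015). Without that library PFKL, the liver-type phosphofructokinase, passed in SkMel28 (-0.37, adjusted p = 0.0452, against 0.091 with it) and in the difference of the changes (0.53, adjusted p = 0.040, against 0.099). ALDOC, the brain-type aldolase, held 3 reads or fewer in every SkMel28 library, so no change is given for that line.

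In the payoff phase, PGK1 and ENO2 fell in both lines while GAPDH rose in MeWo. PGK1, phosphoglycerate kinase, the enzyme of the first ATP-yielding step, was 339, 316 and 317 in the MeWo controls and 293, 210.0 and 228 with Dox (log2 change -0.42 ± 0.12, adjusted p = 0.022). In SkMel28 it fell from 526, 458 and 479 to 348, 339 and 328 (log2 change -0.52 ± 0.12, adjusted p = 0.0077). Neither line had overlapping groups. The MeWo call was lost without any control replicate or without Dox replicate 2 or 3 (-0.44 to -0.32, adjusted p = 0.059 to 0.094), and the SkMel28 call held without each library in turn. ENO2, the neuronal enolase, fell in MeWo from 55.6, 53.6 and 58.6 to 44.7, 40.2 and 29.5 (log2 change -0.56 ± 0.18, adjusted p = 0.0452). It fell in SkMel28 from 47.9, 43.8 and 59.4 to 24.9, 34.1 and 38.4 (log2 change -0.63 ± 0.18, adjusted p = 0.036). Again the groups were apart in both lines, but both calls were close to the threshold. In MeWo the call was lost without any control replicate, MeWo Dox replicate 2 or 3, SkMel28 control replicate 1 or SkMel28 Dox replicate 2 (-0.61 to -0.39, adjusted p = 0.059 to 0.21). In SkMel28 it was lost without any MeWo control replicate, SkMel28 control replicate 1 or 3, or SkMel28 Dox replicate 1 or 2 (-0.67 to -0.45, adjusted p = 0.0509 to 0.20).

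GAPDH, which oxidises the triose phosphate and is often used as a reference gene, was 566, 516 and 507 in the MeWo controls and 518, 1589 and 1383 with Dox. Dox replicate 1 lay within the controls and replicates 2 and 3 far above them. The log2 change was 0.98 ± 0.28 (adjusted p = 0.024), and 1.49 without Dox replicate 1 (adjusted p = 2.1e-07, range over the alternatives 2.1e-07 to 0.21). The call was lost without any control replicate or without Dox replicate 2 or 3 (0.68 to 1.03, adjusted p = 0.0529 to 0.12). With the trend on GC content removed it was 0.91 (adjusted p = 0.020). In SkMel28 GAPDH was 1332, 1793 and 1402 in controls and 1013, 1105 and 1469.8 with Dox, which overlap (log2 change -0.34 ± 0.28, adjusted p = 0.52). The difference of the 2 changes was 1.32 ± 0.40 and missed the threshold (adjusted p = 0.0518). It passed without MeWo Dox replicate 1 or SkMel28 Dox replicate 3, at 1.48 to 1.83 (adjusted p = 2.5e-06 to 0.0497). GENCODE names 65 pseudogenes after GAPDH, and how reads with several matches were counted is not given in the sources used here, so its level is uncertain. The same holds for PGAM1, with 13 such pseudogenes, which was listed at only 0 to 8.74 in the 12 libraries. ENO1, ENO3, PKM and PGAM1 did not pass in either line with all libraries. Without MeWo Dox replicate 1, ENO1 (log2 change -0.33, adjusted p = 0.028), PKM (-0.56, adjusted p = 0.0011) and ENO3 (0.95, adjusted p = 0.017) passed in MeWo, and PKM in the difference of the changes (-0.52, adjusted p = 0.019, against 0.37 with it).

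The lactate genes showed the other opposed pair. SLC16A3, which encodes MCT4, the transporter that exports lactate, was 25.9, 23.7 and 20.1 in the MeWo controls and 26.8, 48.5 and 44.4 with Dox (log2 change 0.72 ± 0.19, adjusted p = 0.015). Dox replicate 1 was just above the highest control, and without it the change was 0.98 (adjusted p = 7.3e-05, range over the alternatives 7.3e-05 to 0.15). The call was lost without MeWo control replicate 3 or Dox replicate 2 or 3 (0.56 to 0.62, adjusted p = 0.075 to 0.077). In SkMel28 it fell from 45.4, 44.1 and 46.8 to 28.8, 30.4 and 27.5, with tight replicates that did not overlap (log2 change -0.64 ± 0.19, adjusted p = 0.040). That call was lost without any SkMel28 library or without MeWo control replicate 1 or 2 (-0.67 to -0.60, adjusted p = 0.0501 to 0.13). The 2 changes differed by 1.35 ± 0.27 (adjusted p = 0.0060), and by 1.08 to 1.71 over the alternatives, each of them past the threshold. The transcript of SLC16A3 is among the GC-rich ones, at 64.7%, and with the GC trend removed the difference was 1.08 (adjusted p = 0.0063).

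LDHA and LDHB encode the subunits of lactate dehydrogenase. LDHB fell slightly in MeWo, from 314, 322 and 329.7 to 289, 256 and 231 (log2 change -0.32 ± 0.11, adjusted p = 0.0490), and the call was lost without any library except MeWo Dox replicate 1 (-0.34 to -0.24, adjusted p = 0.0535 to 0.20). The SkMel28 libraries held 403, 380.1 and 427 in controls and 391, 347 and 359 with Dox (log2 change -0.14 ± 0.11, adjusted p = 0.47). LDHA was 311, 325 and 299 in the MeWo controls and 437, 216 and 193 with Dox. Here too Dox replicate 1 went its own way, above every control while the other two were below them, and the log2 change was -0.24 ± 0.22 (adjusted p = 0.49) with it and -0.61 without it (adjusted p = 0.00090). For LDHA the difference of the changes went from -0.14 ± 0.30 (adjusted p = 0.82) to -0.50 without it (adjusted p = 0.033). SLC16A1, the transporter MCT1, was 50.4, 56.3 and 62.8 in the MeWo controls and 58.7, 65.6 and 76.2 with Dox (log2 change 0.24 ± 0.13, adjusted p = 0.23).

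**Figure D2:**
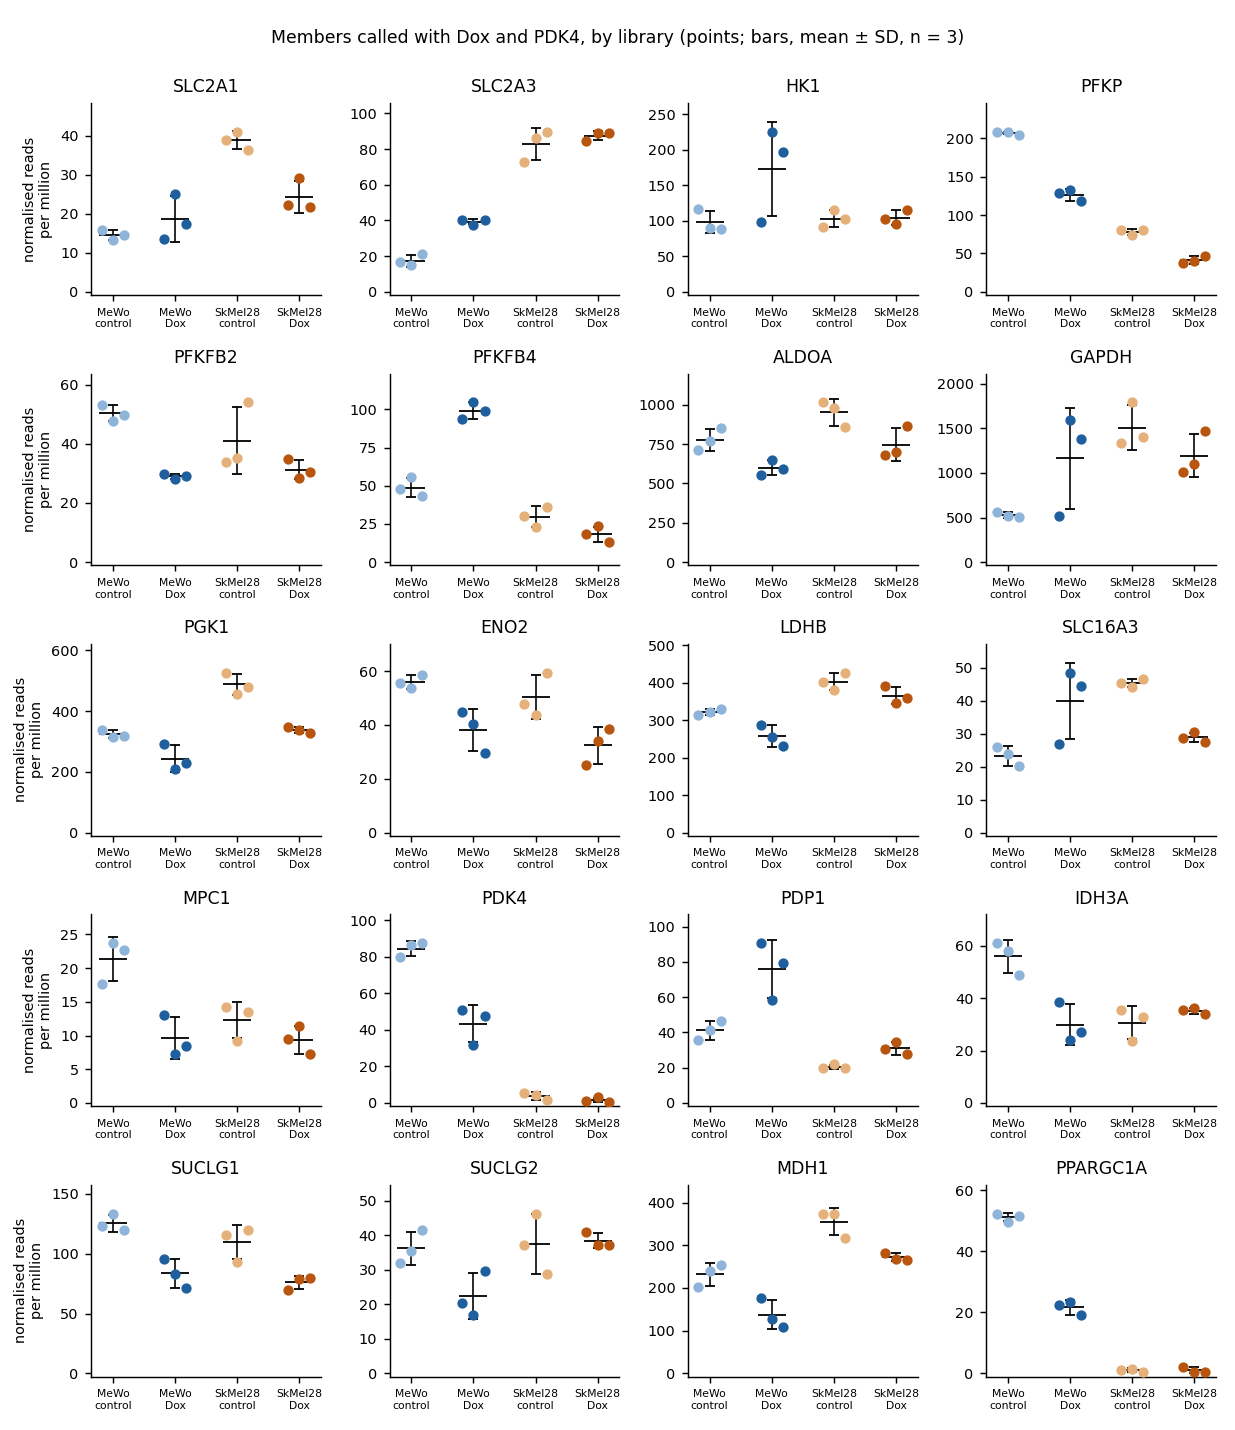
Normalised values in RPM (vertical axis, from 0) in each of the 12 libraries for the 19 genes that passed in either line or in the difference of the lines, and for PDK4. Points are libraries, and bars are mean ± SD of 3. In HK1, GAPDH and SLC16A3 the first point of MeWo Dox sits at or near the controls, while PFKP, SUCLG1 and PGK1 have separate groups in both lines.

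Among the genes of pyruvate entry, PDP1 rose in both lines. PDP1, the phosphatase that switches pyruvate dehydrogenase on, was 35.4, 41.6 and 46.3 in the MeWo controls and 90.7, 58.4 and 79.3 with Dox (log2 change 0.86 ± 0.17, adjusted p = 0.0022). In SkMel28 it rose from 19.8, 21.9 and 19.9 to 30.9, 34.8 and 27.5 (log2 change 0.57 ± 0.17, adjusted p = 0.042). The groups did not overlap in either line. The SkMel28 call was lost without MeWo control replicate 2 or 3 or any SkMel28 library except Dox replicate 3 (0.49 to 0.61, adjusted p = 0.0509 to 0.17). MPC1, a subunit of the mitochondrial pyruvate carrier, fell in MeWo from 17.6, 23.7 and 22.7 to 13.1, 7.2 and 8.47 (log2 change -1.10 ± 0.25, adjusted p = 0.0055), and the call held without each library in turn. In SkMel28 it was 14.2, 9.20 and 13.4 in controls and 9.50, 11.4 and 7.25 with Dox, which overlap (log2 change -0.35 ± 0.25, adjusted p = 0.43). The difference of the 2 changes was -0.75 ± 0.35 (adjusted p = 0.20), and without MeWo Dox replicate 1 it was -0.98 (adjusted p = 0.041).

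PDK4, a kinase that switches pyruvate dehydrogenase off, was 79.8, 86.3 and 87.4 in the MeWo controls and 51.1, 31.8 and 47.4 with Dox. The groups were apart, yet the test missed its threshold (log2 change -0.97 ± 0.34, adjusted p = 0.059, range over the alternatives 0.00041 to 0.21). It passed without MeWo Dox replicate 1, SkMel28 control replicate 3 or SkMel28 Dox replicate 2 or 3 (-1.10 to -0.97, adjusted p = 0.028 to 0.0457), and in both count tests on the recovered reads. In SkMel28 PDK4 was near the floor, at 5.29, 4.44 and 1.53 in controls and 1.19, 3.01 and 0.604 with Dox (log2 change -0.87 ± 0.34, adjusted p = 0.12), and it passed without SkMel28 control replicate 3 or Dox replicate 2 (-1.28 to -1.24, adjusted p = 0.023 to 0.035). PDK1 lay just outside the threshold in both lines, with log2 changes of -0.60 ± 0.22 in MeWo (adjusted p = 0.070) and -0.65 ± 0.22 in SkMel28 (adjusted p = 0.073). In MeWo it passed without control replicate 1 or Dox replicate 3 (-0.80 to -0.79, adjusted p = 0.033 to 0.035). In SkMel28 it passed without MeWo Dox replicate 1 or 2 (-0.65, adjusted p = 0.036 to 0.043), in both count tests, with a pseudocount of 5, with the line fitted alone and with the GC trend removed. The subunits of pyruvate dehydrogenase itself, PDHA1, PDHB, DLAT and DLD, did not pass in either line, and their log2 changes were between -0.32 and 0.23 in MeWo and between -0.13 and 0.37 in SkMel28. MPC2, PDK2, PDK3 and PC, the carboxylase that refills the cycle, did not pass either.

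Of the 13 genes grouped under the TCA cycle, which include the cytosolic MDH1, 4 fell in MeWo, or 30.8%, against 8.12% of all genes. In SkMel28 1 fell, or 7.69%, against 5.04% of all genes. None rose, where 8.58% of all genes did in MeWo and 5.88% in SkMel28. SUCLG1, the shared α subunit of succinyl-CoA ligase, fell in both. It was 123, 134 and 119.8 in the MeWo controls and 95.8, 83.4 and 71.5 with Dox (log2 change -0.59 ± 0.14, adjusted p = 0.0061). SkMel28 had 116, 93.3 and 119.6 in controls and 69.8, 78.5 and 80.1 with Dox, again without overlap (log2 change -0.51 ± 0.14, adjusted p = 0.021). The SkMel28 call was lost without SkMel28 control replicate 1 or 3 or Dox replicate 1 or 2 (-0.54 to -0.45, adjusted p = 0.058 to 0.11). SUCLG2, its GTP-specific partner, fell in MeWo from 32.0, 35.4 and 41.5 to 20.4, 17.1 and 29.8 (log2 change -0.70 ± 0.20, adjusted p = 0.026), and the call was lost without MeWo control replicate 2 or 3 or Dox replicate 2 (-0.71 to -0.53, adjusted p = 0.073 to 0.12). In SkMel28 it was 37.3, 46.3 and 28.7 in controls and 41.0, 37.1 and 37.2 with Dox (log2 change 0.06 ± 0.20, adjusted p = 0.90). The difference of the changes, -0.76 ± 0.29 (adjusted p = 0.11), passed without MeWo Dox replicate 3, at -0.97 (adjusted p = 0.0493).

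IDH3A, the catalytic subunit of NAD-dependent isocitrate dehydrogenase, fell in MeWo from 61.0, 57.9 and 48.9 to 38.6, 23.9 and 27.1 (log2 change -0.91 ± 0.19, adjusted p = 0.0029). Its values in SkMel28 were 35.6, 23.5 and 33.0 in controls and 35.6, 36.1 and 33.8 with Dox, overlapping (log2 change 0.21 ± 0.19, adjusted p = 0.56). The changes differed by -1.12 ± 0.27 (adjusted p = 0.018). That call was lost without MeWo control replicate 1 or 2 or SkMel28 control replicate 2 (-1.09 to -0.94, adjusted p = 0.0511 to 0.0547). MDH1, the cytosolic malate dehydrogenase of the malate-aspartate shuttle, fell in MeWo from 203, 240.1 and 255 to 177, 128 and 109 (log2 change -0.77 ± 0.15, adjusted p = 0.0015). In SkMel28 it was 374, 373 and 318 in controls and 282, 269 and 265 with Dox, groups that were apart without passing the test (log2 change -0.38 ± 0.15, adjusted p = 0.12), and it passed without MeWo Dox replicate 1 (-0.38, adjusted p = 0.015). The difference of the MDH1 changes was -0.39 ± 0.21 (adjusted p = 0.26), and -0.58 without that library (adjusted p = 0.0091). The 9 TCA genes that did not pass in MeWo, CS, IDH3B, IDH3G, IDH2, OGDH, DLST, SUCLA2, FH and MDH2, had log2 changes of -0.57 to 0.19, and the 12 of SkMel28 had changes of -0.46 to 0.21. Without MeWo Dox replicate 1, CS, the citrate synthase that opens the cycle (-0.49, adjusted p = 0.013), IDH3G (-0.66, adjusted p = 0.034) and, in the other direction, IDH3B (0.44, adjusted p = 0.029) passed in MeWo, and IDH3B in the difference of the changes (0.71, adjusted p = 0.014, against 0.29 with it).

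PPARGC1A (PGC1α) was 52.4, 49.7 and 51.5 in the MeWo controls and 22.3, 23.5 and 19.0 with Dox, a separate and tight pair of groups, and fell to 0.422 of its control mean (log2 change -1.21 ± 0.30, adjusted p = 0.010). With a pseudocount of 0.1 the call was lost, at -1.25 (adjusted p = 0.12). SkMel28 scarcely held the transcript, with 1.11, 1.59 and 0.383 in controls and 2.08, 0.334 and 0.604 with Dox, all within 7 reads per library, and no change could be resolved at this depth (log2 change -0.07 ± 0.30, adjusted p = 0.93). The difference of the changes missed the threshold (-1.15 ± 0.43, adjusted p = 0.10). PPARGC1B, its relative PGC1β, was 3.74, 3.5 and 6.15 in the MeWo controls and 6.06, 2.65 and 3.05 with Dox (log2 change -0.18 ± 0.29, adjusted p = 0.72). It was 4.18, 3.49 and 4.98 in the SkMel28 controls and 6.83, 6.35 and 6.35 with Dox (log2 change 0.53 ± 0.29, adjusted p = 0.27), where every Dox library lay above the controls.

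Together 7 of the 52 genes passed in both lines, or 13.5%, where 4.08% of all genes did. They were 38.9% of the members called in MeWo and 87.5% of those called in SkMel28, and over all genes these shares were 24.4% and 37.4%. PFKP, PGK1, ENO2 and SUCLG1 fell in both, 7.69% of the 52 against 1.79% of all genes. PDP1 rose in both, 1.92% against 1.91%, and PFKFB4 and SLC16A3 moved in opposite directions, 3.85% against 0.38%. With scaling to the spike-ins PFKP, PGK1, ENO2 and SUCLG1 no longer passed in MeWo. Their log2 changes there were -0.44, -0.15, -0.29 and -0.32 in that order (limma, adjusted p = 0.089 to 0.63). That scaling also ended the SkMel28 calls of SUCLG1, PDP1 and SLC16A3, while PFKFB4 passed in both lines. The difference between the lines passed in 4 members, SLC2A3, PFKFB4, SLC16A3 and IDH3A, or 7.69% of the 52, near the background of 7.09%. Without MeWo Dox replicate 1 it passed in 13 of the 52 and in 24.7% of all genes. With scaling to the spike-ins it passed in 7, all of them higher in MeWo, and in 12% of all genes. Both counts were near these shares. That scaling put the median of the difference over all genes at 0.30 and took its share of higher calls from 52.3% to 89.5%. The difference for IDH3A was -0.76 under that scaling and no longer passed. With DESeq2 the share of higher calls was 63.0%. The loci of the 4 are chr12:7919230-8019007 (minus strand), chr3:48517684-48562015 (minus strand), chr17:82217934-82261129 (plus strand) and chr15:78131498-78171945 (plus strand) in GRCh38. SLC16A3 overlaps CSNK1D and IDH3A overlaps ACSBG1 and CIB2 on the opposite strand. Whether strand was used in counting is not given in the sources used here, so such reads cannot be told apart. Of the genes that fell in both lines, PGK1 overlaps ATP7A and ENO2 overlaps LRRC23 on the same strand. Reads could be split between the genes there as well.

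The promoters of the 4 genes that fell in both lines are shown because these genes moved together, as the 250 bases before and 50 after the RefSeq start (GRCh38.p14, sense strand of the gene). Capitals mark ACGTG or GCGTG on either strand, the core letters of the hypoxia response element, and ACGTG lies within the E-box CACGTG that MITF and its relatives bind.
PFKP (chr10:3067720-3068019, plus strand): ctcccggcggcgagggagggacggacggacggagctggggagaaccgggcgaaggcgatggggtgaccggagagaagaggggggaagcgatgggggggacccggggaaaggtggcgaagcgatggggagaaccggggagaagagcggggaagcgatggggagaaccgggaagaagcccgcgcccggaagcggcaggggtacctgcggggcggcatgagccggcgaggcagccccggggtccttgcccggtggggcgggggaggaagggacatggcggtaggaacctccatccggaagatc
PGK1 (chrX:78103998-78104297, plus strand): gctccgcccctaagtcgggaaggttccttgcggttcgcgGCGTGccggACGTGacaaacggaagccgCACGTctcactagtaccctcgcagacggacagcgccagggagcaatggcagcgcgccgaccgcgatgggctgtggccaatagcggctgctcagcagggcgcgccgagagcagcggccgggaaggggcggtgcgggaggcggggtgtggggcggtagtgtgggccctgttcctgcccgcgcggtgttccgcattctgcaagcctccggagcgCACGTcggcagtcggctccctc
ENO2 (chr12:6914330-6914629, plus strand): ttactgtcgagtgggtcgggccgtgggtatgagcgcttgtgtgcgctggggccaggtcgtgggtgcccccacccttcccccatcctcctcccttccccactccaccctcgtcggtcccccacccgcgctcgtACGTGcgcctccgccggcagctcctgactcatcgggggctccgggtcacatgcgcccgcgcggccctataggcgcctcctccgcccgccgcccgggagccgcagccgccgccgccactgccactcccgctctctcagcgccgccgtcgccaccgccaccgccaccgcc
SUCLG1 (chr2:84459231-84459530, minus strand): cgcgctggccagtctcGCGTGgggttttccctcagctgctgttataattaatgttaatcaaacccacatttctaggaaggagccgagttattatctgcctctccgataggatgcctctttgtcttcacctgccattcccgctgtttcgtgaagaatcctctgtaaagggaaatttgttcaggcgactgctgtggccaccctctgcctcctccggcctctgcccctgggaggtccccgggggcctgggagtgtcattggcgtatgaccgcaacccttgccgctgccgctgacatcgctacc
PGK1 holds several of these letters, ENO2 and SUCLG1 a single match each and PFKP none. Promoters were matched for 47 of the 52 genes and for 9527 of all listed genes. The long MITF motif TCACGTGA was in none of the 47 and in 2.02% of all promoters, and its variant TCACATGA in none and in 0.871%. The shorter CACGTG was in 5, those of ALDOC, GAPDH, LDHA, PDHB and PPARGC1A, or 10.6% against 10.5% of all, and CACATG in 3, those of HK1, ENO2 and IDH2, or 6.38% against 6.71%. ACGTG, which includes the CACGTG matches, was in 14 (29.8% against 27.2%) and GCGTG in 25 (53.2% against 51.6%). The shares were close to those of all promoters. The RefSeq window of PPARGC1A, chr4:24472856-24473155, lies outside the GENCODE gene at chr4:23755041-23904089, so it may not be the start used in these cells.

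Genes of neighbouring pathways were counted from lists drawn up by function. Of 18 listed further genes of glycolysis and its branches, 2 fell in MeWo (11.1%), and 1 rose and 1 fell in SkMel28 (11.1%), where 16.7% and 10.9% of all genes were called. GPD2, the mitochondrial end of the glycerol phosphate shuttle, fell in both (-0.72 ± 0.15, adjusted p = 0.0025, and -0.58 ± 0.15, adjusted p = 0.016). SLC16A7, the transporter MCT2, fell in MeWo from a mean of 23.9 to 4.34 (-2.23 ± 0.34, adjusted p = 0.00019), and PGM2L1, which makes glucose bisphosphate, rose in SkMel28 from 5.97 to 16.1 (1.32 ± 0.22, adjusted p = 0.00054). Of 18 further genes of pyruvate use and the TCA cycle, 3 fell in MeWo (16.7%), and 3 fell and 1 rose in SkMel28 (22.2%). IDH1, the cytosolic isocitrate dehydrogenase, fell in both (-0.99 ± 0.15, adjusted p = 0.00019, and -0.55 ± 0.15, adjusted p = 0.025). SDHB, a subunit of succinate dehydrogenase, fell in MeWo (-0.57 ± 0.18, adjusted p = 0.033). PDP2, the other phosphatase of pyruvate dehydrogenase, fell in SkMel28 (-0.79 ± 0.16, adjusted p = 0.0035), where PDP1 rose. PDHX, the protein that anchors its E3 subunit, rose there (0.78 ± 0.22, adjusted p = 0.032).

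Of 12 shuttle and glutamine genes, 3 fell and 1 rose in MeWo (33.3%, against 16.7% of all genes) and none passed in SkMel28. GOT2, the mitochondrial aminotransferase of the malate-aspartate shuttle in which MDH1 also works, fell in MeWo (-0.69 ± 0.18, adjusted p = 0.013). Of 10 pentose phosphate genes 1 rose in MeWo and 1 fell in SkMel28, 10% in each and below the share of all genes, the latter being PRPS2, which makes phosphoribosyl pyrophosphate (-1.07 ± 0.15, adjusted p = 0.00014).

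Of 20 listed regulators, 1 rose and 2 fell in MeWo (15%) and 1 rose in SkMel28 (5%), below the 16.7% and 10.9% of all genes. TXNIP, which restrains glucose uptake and is itself induced by glucose, was 118, 141 and 141 in the MeWo controls and 229, 198 and 248 with Dox. In SkMel28 it went from 138, 148 and 141 to 452, 446 and 379.5. It rose in both lines without overlap (0.75 ± 0.12, adjusted p = 0.00028, and 1.57 ± 0.12, adjusted p = 2.5e-07), and by more in SkMel28, where the tested difference of MeWo minus SkMel28 was -0.82 ± 0.17 (adjusted p = 0.0077). SIRT1, a deacetylase that acts on PGC1α, fell in MeWo (-1.02 ± 0.29, adjusted p = 0.022). Among 15 listed hypoxia-induced genes outside glycolysis, 4 rose and 2 fell in MeWo (40%) and 2 rose in SkMel28 (13.3%). DDIT4, an inhibitor of mTORC1, rose in MeWo from a mean of 29.3 to 131 (2.06 ± 0.22, adjusted p = 3.5e-06), and P4HA2, a collagen prolyl hydroxylase, from 46.9 to 112 (1.24 ± 0.13, adjusted p = 4.2e-06). MXI1, an antagonist of MYC, rose in SkMel28 (1.01 ± 0.14, adjusted p = 0.00014). HILPDA and NDRG1 also rose in MeWo, and VEGFA in SkMel28. BNIP3 (-0.71 ± 0.23, adjusted p = 0.0452) and ADM (-0.93 ± 0.25, adjusted p = 0.018), both commonly raised by hypoxia, fell in MeWo.

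For 12 pairs of related genes, log2 ratios within a library, taken on value + 1 and so little affected by the scaling between libraries except for low genes, were compared between groups by a two-sided exact permutation test, whose smallest p with 3 against 3 libraries is 0.10, or 0.16 after adjustment over the 36 tests, so no ratio could pass. The ratio of PFKP to PFKL was 1.99 ± 0.06 (SD, n = 3) in the MeWo controls and 1.13 ± 0.08 with Dox, and -0.19 ± 0.03 in the SkMel28 controls and -0.72 ± 0.19 with Dox, apart in both lines (exact p = 0.10 each). SLC2A3 over SLC2A1 was higher with Dox in both lines, by 0.85 in MeWo and 0.74 in SkMel28 without overlap, in MeWo with a higher SLC2A3 and in SkMel28 with a lower SLC2A1. ENO2 over ENO1 differed by -0.35 and -0.38, both lower with Dox and without overlap, and MPC1 over MPC2 by -0.83 in MeWo. SLC16A3 over SLC16A1 differed by 0.48 in MeWo, where the groups overlapped, and by -0.66 in SkMel28, where they did not. The log2 ratio of LDHA to LDHB was -0.01, 0.01 and -0.14 in the MeWo controls and 0.60, -0.25 and -0.26 with Dox, a difference of 0.08. Without Dox replicate 1 it was -0.20 and the groups did not overlap. In SkMel28 the difference was 0.04, with overlap. ALDOC over ALDOA, at the floor in SkMel28, differed between the control lines by -6.39 to -2.68 over pseudocounts of 0.1 and 5.

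**Figure D3:**
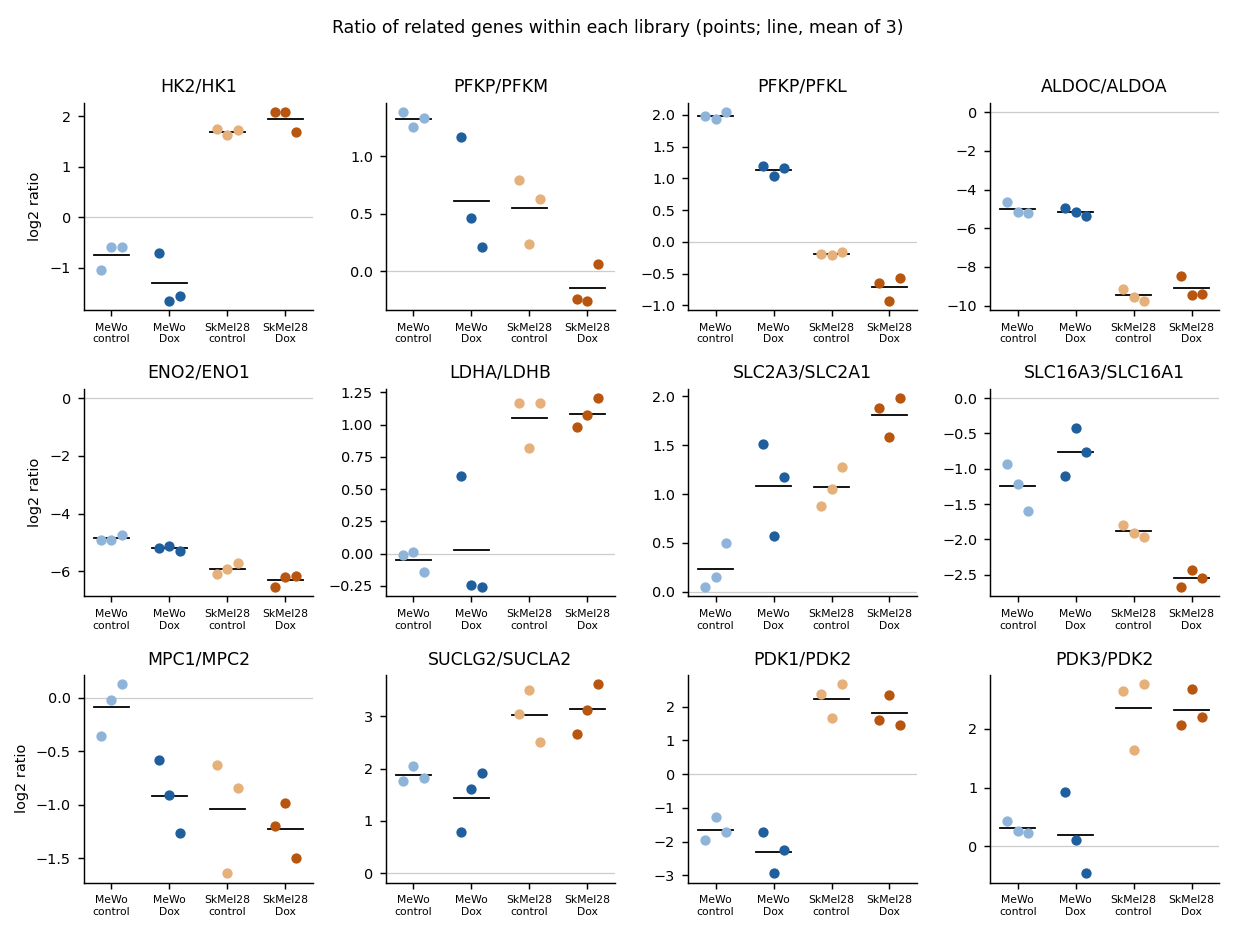
Log2 ratio (vertical axis) of 12 pairs of related genes in each library, with points for libraries and a line for the mean of 3. PFKP/PFKL is lower with Dox in both lines, and most pairs differ more between the lines than with Dox, for example HK2/HK1 and PDK1/PDK2.

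More of the genes differed between the uninduced lines than changed with Dox in either. Between SkMel28 and MeWo controls 37 of the 52 genes passed, or 71.2%, where 51.4% of all genes did. Of these 21 were higher in SkMel28, against 26.6% of all genes, and 16 lower, against 24.8%. Scaling to the spike-ins moved the median of all genes by 0.13 and the share of higher calls from 51.7% to 61.9%, and 34 genes then passed, 22 of them higher. Of all genes 46.5% passed under it. A difference of at least 1 on the log2 scale was called in 18, or 34.6%, against 26.4% of all genes. All 6 genes of glucose uptake and lactate handling were higher in SkMel28, while 5 of 13 TCA genes were lower and 3 higher. Among them the call for LDHB was lost without MeWo control replicate 1 or SkMel28 control replicate 3 (0.28 to 0.30, adjusted p = 0.059 to 0.074) and that for OGDH without MeWo control replicate 1 or 2 or SkMel28 control replicate 1 or 3 (-0.74 to -0.59, adjusted p = 0.065 to 0.11). The difference between lines cannot be told apart from that between media.

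Among the genes higher in SkMel28, SLC2A3 (2.19 ± 0.15) and SLC2A1 (1.36 ± 0.20) had control values already given, which did not overlap (adjusted p = 1.4e-09 and 2.8e-05). HK2 was 5.74-fold higher (2.50 ± 0.11, adjusted p = 8.6e-12) while HK1 did not differ by more than the spread (0.07 ± 0.22, adjusted p = 0.82). LDHA was 311, 325 and 299 in the MeWo and 904, 670.2 and 959.9 in the SkMel28 controls (1.42 ± 0.22, adjusted p = 3.0e-05). SLC16A1 was 50.4, 56.3 and 62.8 against 159.8, 168 and 185 (1.59 ± 0.13, adjusted p = 2.0e-08). Both were higher in each SkMel28 library than in any MeWo control, and so was GAPDH (1.5 ± 0.28, adjusted p = 0.00025). PDK1, the kinase that hypoxia induces, was 6.33, 10.9 and 9.07 against 55.4, 49.5 and 56.3, or 6.13-fold higher (2.51 ± 0.22, adjusted p = 4.7e-08). PC was 4.32, 3.89 and 4.53 against 18.4, 33.6 and 28.7 (2.37 ± 0.33, adjusted p = 1.3e-05). IDH2, the mitochondrial NADP-dependent isocitrate dehydrogenase, was 33.4, 26.4 and 27.2 against 87.7, 67.3 and 90.8 (1.46 ± 0.18, adjusted p = 4.0e-06). The groups were apart in each of these.

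Among those lower in SkMel28, PPARGC1A was lower by the values given above (-4.73 ± 0.30, adjusted p = 7.4e-10), with PGC1β not called (-0.04 ± 0.29, adjusted p = 0.91). PDK4 was near the floor in SkMel28 (-4.27 ± 0.34, adjusted p = 1.3e-08). ALDOC was 27.4, 20.6 and 22 in the MeWo controls and 0.835, 0.317 and 0 in SkMel28, where no library held more than 3 reads, so it was at least 20.3-fold higher in MeWo, against a floor of 3 reads per library or 1.15 RPM (counting error only). With Dox it was 17.2, 17.4 and 13.2 in MeWo and 0.891, 0 and 0.302 in SkMel28, at least 15.9-fold higher. PDK2 was 27.6, 27.6 and 32.1 against 9.74, 14.9 and 8.05 (-1.38 ± 0.27, adjusted p = 0.00041). The 4 PDK kinases differed in both directions, PDK1 and PDK3 being higher (0.66 for PDK3) and PDK2 and PDK4 lower in SkMel28. PFKP (-1.40 ± 0.12, adjusted p = 2.8e-08) was lower and PFKL higher (0.78 ± 0.13, adjusted p = 9.9e-05). ENO3, the muscle enolase, was 13.5, 10.9 and 11 against 5.57, 4.13 and 2.30 (-1.41 ± 0.28, adjusted p = 0.00039).

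In the cycle itself CS was 99.1, 86.6 and 94.6 in the MeWo and 49.0, 36.2 and 43.3 in the SkMel28 controls (-1.12 ± 0.15, adjusted p = 6.9e-06). MDH2, the mitochondrial malate dehydrogenase, was 259, 259 and 262 against 109, 95.5 and 102 (-1.34 ± 0.12, adjusted p = 3.9e-08), whereas the cytosolic MDH1 was higher in SkMel28 (0.61 ± 0.15, adjusted p = 0.0023). SUCLA2, the ATP-specific subunit of succinyl-CoA ligase, was 8.64, 7.77 and 11 against 3.62, 3.17 and 4.22 (-1.11 ± 0.31, adjusted p = 0.0064), while SUCLG1 and SUCLG2 were not called (-0.20 and 0.03). All 18 genes called with a difference of at least 1 on the log2 scale also passed in all 22 alternatives tried.

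**Figure D4:**
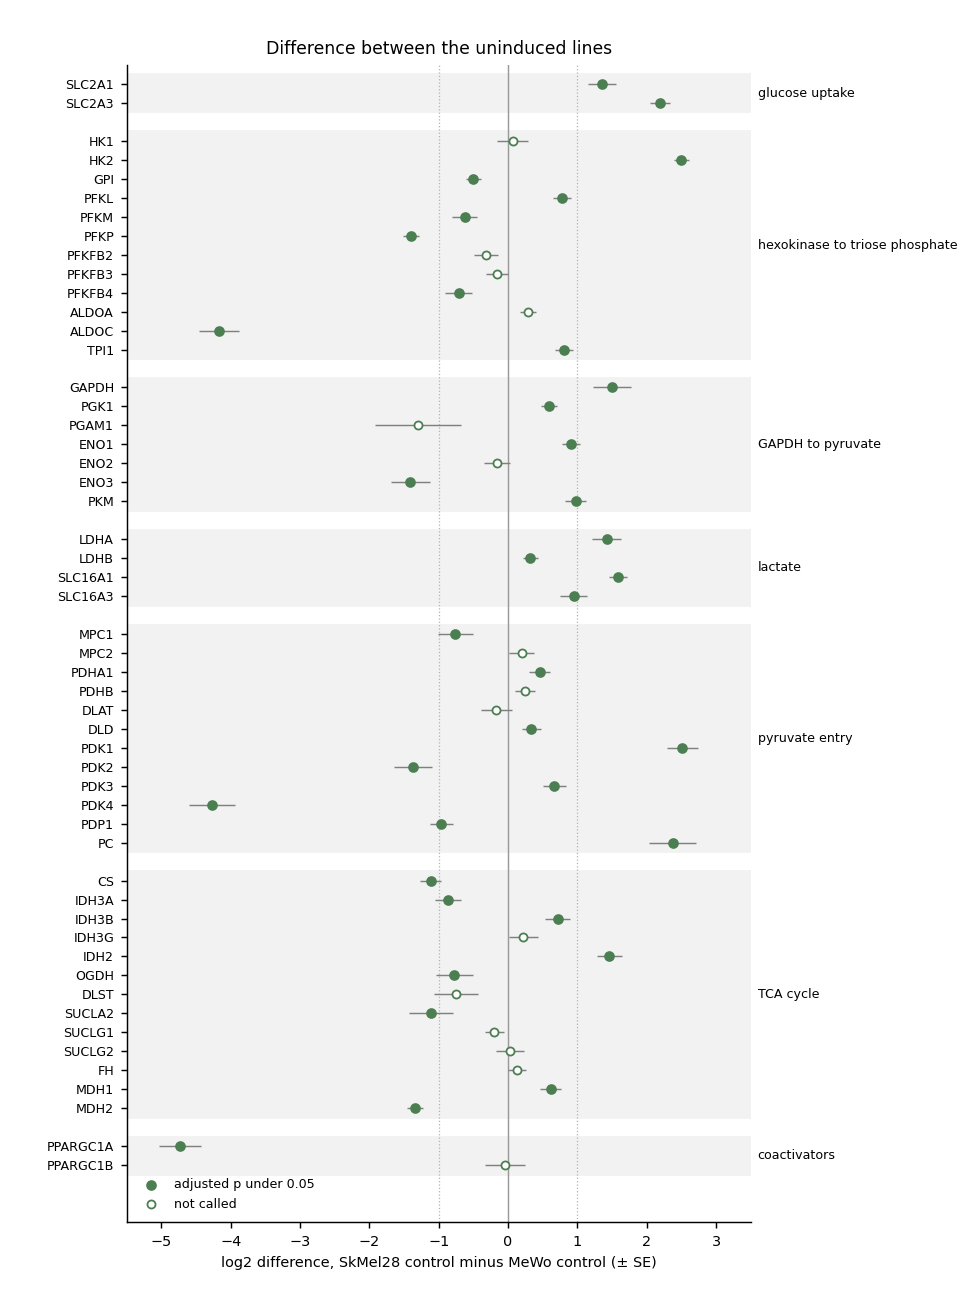
Log2 difference between the control groups (horizontal axis, SkMel28 minus MeWo, bars ± SE) of the 52 genes by pathway step. Filled points passed the test (37 genes), and dotted lines mark a difference of 1. Uptake and lactate genes lie to the right, and PPARGC1A, PDK4 and ALDOC lie far to the left, ALDOC being at the floor in SkMel28.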

How the data were processed

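QuantSeq Forward 3′ end RNA-seq libraries were read. The submitters' processing notes name FastQC 0.11.7, cutadapt 2.8, STAR 2.5.1b, edgeR and hg38. The counting tool, annotation, use of strand and treatment of multiply mapped reads are not given in the sources used here. The deposited values are a signal, read counts per 1000000 reads of effective library size scaled by the authors, for 12616 genes and 67 spike-ins, after a filter that leaves a value of at least 1 in 3 or more libraries. In each library 100% of values came back as whole reads within 0.01, giving 2568187 to 3714608 reads per library. The precision of low values is limited by counting, with a floor of 3 reads.

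Groups followed the labels. Values were compared as log2(value + 1) with limma 3.58.1 (R 4.3.3, mean-variance trend) over 12 libraries and 4 group means, p adjusted by Benjamini-Hochberg over all genes. The script was tested on simulated data. Ratios were tested by exact permutation. Alternatives were edgeR 4.0.16 and DESeq2 1.42.0 on recovered reads, other scalings, pseudocounts of 0.1 and 5, a filter of 5 in 3 libraries, no trend, each line alone, a replicate block and leaving out each library. Removal of a GC trend (lowess, span 0.3, for the 92.3% of genes with a value from GENCODE 44) was chosen after seeing the data. The genes and lists were chosen with earlier results of these data known. Values in every library are given for genes that passed with Dox or in the difference of the lines, for those called between the lines with a difference of at least 1, and for PPARGC1A, PPARGC1B, HK2 and PDK4. Promoters came from RefSeq (GRCh38.p14). Some genes of the neighbouring lists are counted but not reported by name here.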

Additional observations from a re-analysis of the deposited data

Results flagged for a closer look

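In 4 genes the change with Dox differed between the lines by the test of the difference itself (limma, MeWo change minus SkMel28 change, log2 scale), which is 7.69% of the 52, near the 7.09% of all genes that passed. The difference was 1.06 ± 0.21 (SE) for SLC2A3 (adjusted p = 0.0054), with all 3 Dox libraries above all 3 controls in MeWo and overlapping groups in SkMel28. For PFKFB4 it was 1.70 ± 0.28 (adjusted p = 0.0015), and for SLC16A3 1.35 ± 0.27 (adjusted p = 0.0060), each called higher in MeWo and lower in SkMel28. For IDH3A it was -1.12 ± 0.27 (adjusted p = 0.018), called lower in MeWo only. Without MeWo Dox replicate 1 these were 1.05, 1.74, 1.61 and -1.31, and with the GC trend removed 1.14, 1.57, 1.08 and -1.0, in the same order. All 4 passed in both.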

How the results depend on the processing

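Signs were followed for the genes called with Dox or in the difference of the lines and for PPARGC1A, PPARGC1B, HK2 and PDK4. Between the control lines they were followed for genes called with a difference of at least 1 and for PPARGC1B. Of these, no called gene changed its sign under any alternative. Those not called did so in 40 cases, reaching at most 0.39 in size on the log2 scale, and ratios in 12 cases, reaching at most 0.21. Members not followed could move further. PC in MeWo went from -0.05 to 0.43 without MeWo Dox replicate 1, not called either way. Scaling to the spike-ins left 9 of the 52 genes called in MeWo, 5 in SkMel28 and 7 in the difference of the lines, against 18, 8 and 4. Of all genes 19.7%, 7.35% and 12% were called under it, in that order. Without the mean-variance trend 11 were called in MeWo and 2 in SkMel28, where 13.4% and 8.74% of all genes were. The 2 in SkMel28 were a smaller share of the 52 than the share of all genes. With each line fitted alone 6 were called in MeWo and 8 in SkMel28, where calls over all genes went from 2107 to 813 and from 1378 to 1558. A pseudocount of 5 gave 7 in the difference of the lines, where 8.78% of all genes were called. The edgeR test on recovered reads called 2045 of all genes in MeWo, 1422 in SkMel28, 806 in the difference of the lines and 6442 between the control lines, with 19, 9, 6 and 37 of the 52 among them. Leaving out each library in turn gave 10 to 27 in MeWo, 2 to 12 in SkMel28, 3 to 13 in the difference of the lines and 34 to 40 between the control lines. The shares of all genes called were 10.2% to 31%, 6.21% to 16.2%, 3.56% to 24.7% and 45.1% to 56.6%, in that order. The 2 called in SkMel28 without its control replicate 1 or its Dox replicate 1 were a smaller share than the 7.35% and 6.48% of all genes. The highest count in each of the 3 Dox comparisons was without MeWo Dox replicate 1. Same-numbered control and Dox libraries did not deviate together (r from -0.18 to 0.16). With 3 libraries a group this cannot settle whether the numbers pair them. With a replicate block 16 were called in MeWo, 4 in SkMel28, 4 in the difference of the lines and 36 between the control lines. Of all genes 14.4%, 8.48%, 5.08% and 50% were called, in that order, and the 4 in SkMel28 were a smaller share of the 52. Spike-in scaling also ended the call of the IDH3A difference (adjusted p = 0.14). Of 2418 values of the genes followed and of the ratios under an alternative, 2238 were unchanged. For a gene this means the same side of the threshold, and for a ratio a shift within the spread between replicates. Of the genes, 143 values lost the threshold and 33 gained it, and 4 ratios moved by more than that spread. No ratio passed under any alternative, which the design does not allow. The cause of these changes was not tested. Depth limits what can be said of PPARGC1A, PDK4 and ALDOC in SkMel28 and of PGAM1 in all groups.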
